A study of Mus musculus with 2 samples.

Results

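Müller glia, the radial glia that span the retina, clear glutamate, potassium, water, and carbon dioxide from around the neurons. They take up glutamate, amidate it to glutamine, and return the glutamine to neurons, while potassium channels and aquaporin at their endfeet carry potassium and water toward vessels and vitreous, and carbonic anhydrases buffer pH. The genes described here are 9 of the 32285 in the count tables, chosen by symbol for these roles, at a time when earlier results of these data were known. They are *Glul* (glutamine synthetase), *Slc1a3* (the main glutamate transporter of Müller glia), *Slc1a2* (a glutamate transporter also used by retinal neurons), *Slc38a3* (a glutamine carrier), *Kcnj10* and *Kcnj2* (inwardly rectifying potassium channels), *Aqp4* (the endfoot water channel), *Car2* (cytosolic carbonic anhydrase), and *Car14* (a membrane-bound carbonic anhydrase).

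Droplet-based 3′ scRNA-Seq was performed on whole retina of male mice aged 7 months on the C57BL/6J background, either WT or ND6 P25L. The mutant mice carried the P25L change in the mtDNA-encoded *ND6* gene, introduced through an ES cell line and kept by crossing mutant females with WT males, and retinas of both groups were digested with trypsin and papain. The values come from 1 WT library (replicate 1) and 1 ND6 library (replicate 1), and further libraries were not analysed here. Whether a library pooled mice is not given in the sources used here, the spread between mice is unknown, and genotype and library cannot be told apart, so no test was possible and every interval covers counting error only.

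The tables hold unique molecular identifiers (UMIs), each standing for 1 captured transcript, with 77958836 in the WT and 80358255 in the ND6 library. Barcodes with more than 400 UMIs, more than 200 genes, and an mtDNA-encoded share of no more than 20% were taken as cells, which left 12529 WT and 18395 ND6 cells with medians of 1878 and 1416 UMIs. The libraries shared 59 cell barcodes. Cells with at least 2 of the 4 markers *Dkk3*, *Rlbp1*, *Spc25*, and *Sox9* are called Müller-rule cells. They numbered 632 (5.04%) in WT and 1451 (7.89%) in ND6, with medians of 6234 and 4762 UMIs. Levels are counts per 1000000 UMIs (CPM), summed over the named cells. A 3′ library gives 1 tag per transcript whatever its length, so CPM was not divided by length. Barcodes of 10 to 100 UMIs, 7324 in WT and 8621 in ND6, were taken as free RNA.

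The name Müller glia held only in part. Rod transcripts were abundant in Müller-rule cells, as 84.2% of them in WT and 80.7% in ND6 also had at least 2 of 4 rod markers. The gate for retinal pigment epithelium (RPE), which itself uses *Rlbp1*, was met by 18.8% of the WT but 9.24% of the ND6 cells, and a cell could meet several gates. RPE check genes (*Ttr*, *Rgr*, *Rdh5*, *Mlana*) summed to 8448 CPM in WT and 2189 CPM in ND6 Müller-rule cells. Cells near the cut were many: 2439 WT and 3744 ND6 cells had 1 marker, and 478 and 1023 had exactly 2. Cells with all 4 markers, 50 in WT and 70 in ND6, are called 4-marker cells and were singled out after values had been seen. There the RPE check genes summed to 533 and 782 CPM, and the 8 Müller check genes, such as *Apoe*, *Clu*, and *Vim*, to 3460 and 2869 CPM. The same 8 genes summed to 13298 CPM in WT and 13420 CPM in ND6 RPE cells, so a high sum is not particular to Müller glia. The 4-marker cells were deep, with medians of 13275 UMIs in WT and 10916 in ND6, and doublets were not removed. They also differed in makeup: the Müller check genes took a median of 0.803% of a cell's UMIs in WT and 0.189% in ND6, and the bipolar gate genes summed to 229 CPM in WT and 817 CPM in ND6. In cells with exactly 2 markers the RPE check genes summed to 8115 CPM in WT and 2878 CPM in ND6, and with 3 markers to 15555 and 941 CPM. These differences stood beside every comparison of cells by marker number below, and their part in it was not tested.

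The genes fell into 3 kinds by where their transcripts lay. In both libraries 5 of the 9 genes, *Glul*, *Slc1a3*, *Kcnj10*, *Aqp4*, and *Car14*, were at least 2-fold higher in Müller-rule cells than in the other cells, against 14.6% of 14330 genes in WT and 16.8% of 14900 genes in ND6. The same 5 were enriched in 4-marker cells of both libraries (17.7% and 24.7% of genes). In Müller-rule cells that met no gate other than rod, 343 in WT and 758 in ND6, there were 5 in WT (11.6%) and 4, without *Car14*, in ND6 (12.4%). Over all Müller-rule cells *Slc1a2*, *Slc38a3*, and *Car2* were at most 1.33-fold higher than in the other cells. They were also present in rods, cones, and bipolar cells. In 4-marker cells of WT they were at most 1.69-fold above the cells outside the rule. *Kcnj2* was hardly detected. Against free RNA of WT, *Glul*, *Slc1a3*, *Aqp4*, and *Car14* were higher in Müller-rule cells, by log2 ratios of 0.48, 2.52, 2.56, and 3.53. *Kcnj10* there had 0.16 (−1.74 to 3.22). In ND6 none of the 5 enriched genes was above free RNA in Müller-rule cells. *Glul* (−0.53, −0.65 to −0.40) and *Slc1a3* (−0.79, −1.35 to −0.18) were below it. *Kcnj10* (−0.68), *Aqp4* (−0.52), and *Car14* (−0.08) had intervals that included no difference. Yet in 4-marker cells of ND6 the levels of *Glul*, *Slc1a3*, *Aqp4*, and *Car14* given below lay above those of ND6 free RNA. *Kcnj10* had only 9 UMIs in that free RNA. The levels in each class of cells are shown in the plot by cell class.

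**Figure D1:**
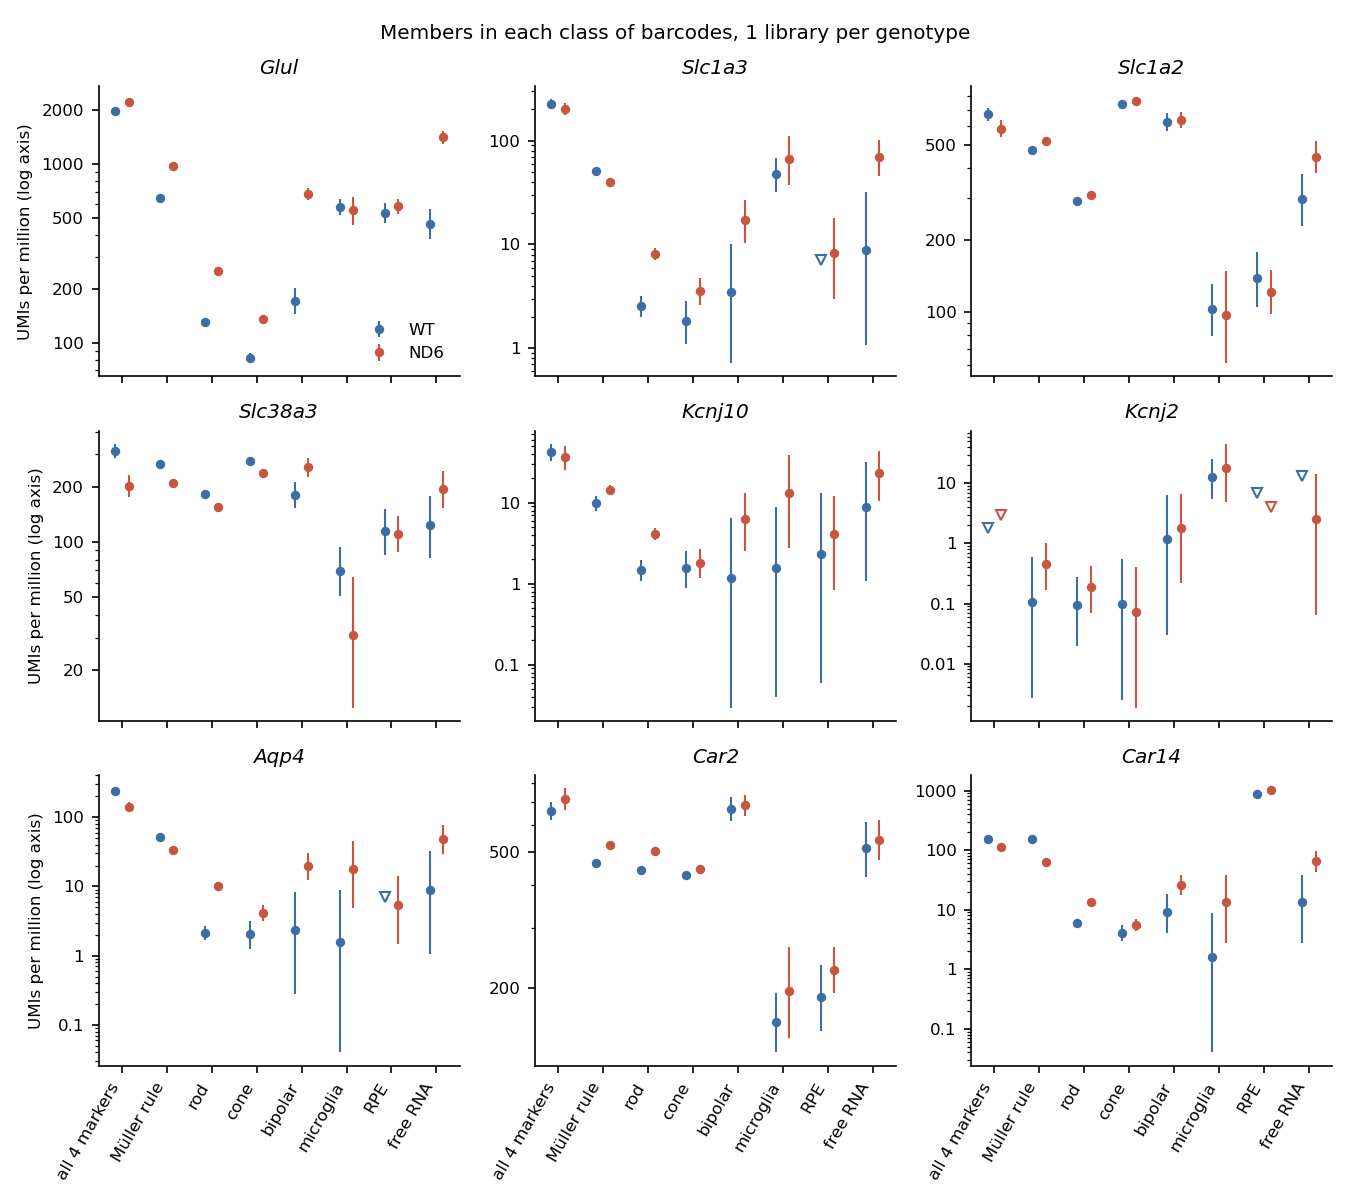
Level of each gene in CPM on a log axis in Müller-rule cells, rods, cones, bipolar cells, microglia or macrophages, RPE, and free RNA of the WT and ND6 libraries, with exact 95% Poisson intervals for counting error. Open triangles mark the level that 3 UMIs would give where 0 were counted. In both libraries *Aqp4*, *Slc1a3*, and *Kcnj10* stood higher in Müller-rule cells than in rods and cones, and *Car14* was highest in RPE cells.

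*Glul*, *Slc1a3*, *Kcnj10*, *Aqp4*, and *Car14* were enriched in Müller-rule cells and higher in ND6 in rods and over every barcode, as given below. Of these, the upstream sequences of *Slc1a3* and *Kcnj10* are shown as examples. Each is the 250 bases before the RefSeq transcript start on GRCm38.p6, 5′ to 3′ on the gene's strand, with CCAAT (the CCAAT box) and ACAAT (the core of Sox family sites) in capitals on either strand (ATTGG and ATTGT where reversed).
Slc1a3 chr15:8710808-8711057 (minus strand): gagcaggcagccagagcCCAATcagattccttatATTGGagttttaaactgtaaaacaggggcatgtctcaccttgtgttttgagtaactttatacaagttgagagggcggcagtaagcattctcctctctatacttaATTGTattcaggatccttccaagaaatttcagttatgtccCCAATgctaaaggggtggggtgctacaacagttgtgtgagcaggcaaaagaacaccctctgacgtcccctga
Kcnj10 chr1:172340960-172341209 (plus strand): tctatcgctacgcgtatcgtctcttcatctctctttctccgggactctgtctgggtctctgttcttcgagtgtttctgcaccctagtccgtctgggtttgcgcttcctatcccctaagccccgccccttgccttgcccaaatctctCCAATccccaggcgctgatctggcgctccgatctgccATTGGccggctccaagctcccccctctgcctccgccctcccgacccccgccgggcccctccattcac
The *Slc1a3* window held 3 CCAAT matches and 1 ACAAT match, and the *Kcnj10* window 2 CCAAT matches. CCAAT occurred in 33.8% and ACAAT in 27.7% of the 32851 windows of this length in the table, so these matches describe the letters and no more. On mm10, *Slc1a3* (ENSMUSG00000005360) lies on the minus strand at chr15:8634124-8710764 and *Kcnj10* (ENSMUSG00000044708) on the plus strand at chr1:172341210-172374085.

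Glutamine synthetase was the most abundant of the 9 genes in Müller-rule cells. *Glul* (ENSMUSG00000026473, mm10 chr1:153899944-153909723, plus strand) stood at 645 CPM in WT (6025 UMIs) and 979 CPM in ND6 (12813 UMIs), a log2 ratio of ND6 over WT of 0.60 (95% interval 0.56 to 0.65). This difference was smaller in cells with all markers. With exactly 2 markers *Glul* was at 313 CPM in WT and 676 CPM in ND6, with 3 markers at 485 and 1353 CPM, but in 4-marker cells at 1989.95 and 2216 CPM, a log2 ratio of 0.16 (0.08 to 0.23). In Müller-rule cells that met no gate other than rod, the log2 ratio was 0.24. The larger differences in *Glul* thus lay in Müller-rule cells with fewer markers, whose RPE transcripts also differed between the libraries.

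*Glul* transcripts were not held by Müller-rule cells alone. Rods had 130.1 CPM in WT and 250.4 CPM in ND6, cones 82.2 and 136 CPM, and bipolar cells 171 and 680.2 CPM. Free RNA had 464 CPM in WT (105 UMIs) and 1410.3 CPM in ND6 (549 UMIs), a log2 ratio of 1.60 (1.30 to 1.92). *Glul* was thus higher in ND6 in free RNA, rods, cones, and bipolar cells alike, with bipolar cells at a log2 ratio of 1.99 and rods at 0.94. Microglia or macrophages (574 and 551 CPM) and RPE cells (535 and 580.2 CPM) had overlapping counting intervals in the 2 libraries. At least 1 *Glul* UMI was counted in 83.7% of the WT and 89.0% of the ND6 Müller-rule cells, beside 26.4% and 33.3% of rods at medians of 1722 and 1337 UMIs. Thinned to 400 UMIs per cell, the shares were 26.4% and 39.0% in Müller-rule cells against 6.19% and 11.3% in rods, so the gap to rods remained at equal depth. Every 4-marker cell had *Glul*, with 5 to 265 UMIs per cell in WT (median 44) and 2 to 171 in ND6 (median 23). Cells with at least 10 *Glul* UMIs numbered 150 in WT and 518 in ND6, and 82.7% and 86.5% of them were Müller-rule cells.

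*Slc1a3*, which takes up synaptic glutamate, was far more confined. It stood at 50.8 CPM (474 UMIs) in WT and 40.0 CPM (523 UMIs) in ND6 Müller-rule cells, 14.5-fold and 5.19-fold above the other cells of the same library. The log2 ratio of ND6 over WT was −0.34 (−0.53 to −0.16). In 4-marker cells the levels were 226 and 201 CPM, a log2 ratio of −0.17 whose interval of −0.42 to 0.08 included no difference. With exactly 2 markers *Slc1a3* was higher in ND6, at 8.38 CPM in WT and 22.0 CPM in ND6, and with 3 markers it was at 27.3 and 36.9 CPM, a log2 ratio of 0.43 (−0.03 to 0.91). The 4-marker cells, 50 in WT and 70 in ND6, held 370 of the 474 *Slc1a3* UMIs in WT and 205 of 523 in ND6. Of all UMIs of Müller-rule cells they held 1637730 of 9334512 in WT but 1017450 of 13081178 in ND6. The lower sum thus went with this smaller weight of 4-marker cells in ND6, while the level in 4-marker cells did not differ beyond counting error. In Müller-rule cells with no gate other than rod, however, *Slc1a3* was at 103 CPM (258 UMIs) in WT and 56.2 CPM (199 UMIs) in ND6. This difference was larger than over all Müller-rule cells, and the part of each was not tested. Cells outside the Müller rule had higher levels in ND6. Rods had 2.54 CPM in WT and 8.12 CPM in ND6, and free RNA 8.84 CPM (2 UMIs) and 69.4 CPM (27 UMIs). RPE cells had 0 UMIs in WT, where 3 would be 7.03 CPM, and 8.21 CPM in ND6 from 6 UMIs. In microglia or macrophages *Slc1a3* was at 47.6 CPM in WT and 66.7 CPM in ND6, from 30 and 15 UMIs.

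The share of Müller-rule cells with an *Slc1a3* UMI was 15.8% in WT and 17.9% in ND6, against 0.691% and 1.71% of rods. Thinned to 400 UMIs, these were 2.65% and 2.58% against 0.133% and 0.491%. In 4-marker cells 84.0% of the WT and 70.0% of the ND6 cells had it, with 0 to 19 UMIs per cell in WT (median 8) and 0 to 18 in ND6 (median 1). The ranges of single cells overlapped almost wholly while the middle of the ND6 cells lay lower, as did their depth.

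*Slc1a2* showed no such restriction. Among classes of at least 50 cells the levels were highest in cones (738 CPM in WT and 759 CPM in ND6), then bipolar cells (622 and 636 CPM), Müller-rule cells (475 and 516 CPM), and rods (290.2 and 309.6 CPM), in the same order in both libraries and with no overlap of neighbouring counting intervals. The log2 ratio in Müller-rule cells was 0.12 (0.06 to 0.17) and in 4-marker cells −0.20 (−0.34 to −0.05), so its direction changed with the marker limit. The glutamine carrier *Slc38a3* was likewise shared, at 267 CPM in WT and 210.1 CPM in ND6 Müller-rule cells beside 275 and 238 CPM in cones, the WT pair with overlapping counting intervals. Its log2 ratio was −0.34 in Müller-rule cells, −0.64 (−0.88 to −0.41) in 4-marker cells, −0.23 in rods, and −0.21 in cones. It was lower in ND6 in each of these, but higher in bipolar cells (181 to 255 CPM, 0.50).

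The potassium channel *Kcnj10* was a low transcript detected in few cells. In Müller-rule cells 92 UMIs were counted in WT (9.86 CPM) and 189 in ND6 (14.4 CPM), a log2 ratio of 0.55 (0.18 to 0.93). The sign did not hold in cells with all markers. In 4-marker cells the levels were 42.1 CPM (69 UMIs) and 36.4 CPM (37 UMIs), a log2 ratio of −0.21 (−0.83 to 0.38), and in Müller-rule cells with no gate other than rod 20.3 and 21.2 CPM, a log2 ratio of 0.06. With exactly 2 markers it was at 2.50 CPM in WT and 9.75 CPM in ND6, and with 3 markers at 4.31 and 19.4 CPM. As with *Glul*, the higher levels in ND6 lay in cells of fewer markers, whose RPE transcripts also differed between the libraries. Rods had 1.48 and 4.15 CPM, a log2 ratio of 1.49. A UMI of *Kcnj10* was counted in 7.75% of WT and 10.3% of ND6 Müller-rule cells, against 0.422% and 0.901% of rods, and thinned to 400 UMIs in 0.673% and 1.09% against 0.081% and 0.221%.

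*Kcnj2*, the other inward rectifier, gave 1 UMI in WT and 6 in ND6 Müller-rule cells, too few for a ratio. In 4-marker cells it gave 0 in both libraries, where 3 UMIs would be 1.83 CPM in WT and 2.95 CPM in ND6. Over all cells it gave 14 and 21 UMIs, and 8 of the WT and 4 of the ND6 UMIs lay in microglia or macrophages, which had 12.7 and 17.8 CPM. At this depth *Kcnj2* was not detectable as a Müller transcript.

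The water channel *Aqp4* had the highest ratio of Müller-rule cells to other cells of the 9 genes in WT, and like *Slc1a3* it was lower in ND6 when all Müller-rule cells were summed. It stood at 52.3 CPM (488 UMIs) in WT and 34.0 CPM (445 UMIs) in ND6 Müller-rule cells, 24.9-fold and 3.90-fold above the other cells. The log2 ratio was −0.62 (−0.81 to −0.43). In Müller-rule cells with no gate other than rod *Aqp4* was at 114 CPM (286 UMIs) in WT and 55.9 CPM (198 UMIs) in ND6. With exactly 2 markers it was higher in ND6, at 6.95 CPM in WT and 19.4 CPM in ND6, and with 3 markers it was at 30.7 and 38.3 CPM, a log2 ratio of 0.32 (−0.12 to 0.77). The 4-marker cells held 385 of the 488 *Aqp4* UMIs in WT and 144 of 445 in ND6. The lower sum went with their smaller weight among ND6 Müller-rule UMIs, given for *Slc1a3*, and with a lower level in them. Their levels were 235 and 142 CPM, a log2 ratio of −0.73 (−1.02 to −0.45). Without the cell of the most *Aqp4* UMIs in each library the log2 ratio was −0.84, so no single cell carried it. The 10 cells with the most *Aqp4* held 53.2% of its UMIs in WT and 68.1% in ND6 4-marker cells, and per cell there were 0 to 27 UMIs in WT (median 5.5) and 0 to 16 in ND6 (median 1). Summed over the same cells, the Müller check genes stood at 3460 CPM in WT and 2869 CPM in ND6. This difference was smaller in proportion than that of *Aqp4*. By the per-cell median, an unlike measure, their share was 0.803% in WT and 0.189% in ND6. Their part was not tested.

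Elsewhere *Aqp4* was higher in ND6. Rods had 2.13 CPM (68 UMIs) in WT and 10.0 CPM (316 UMIs) in ND6, a log2 ratio of 2.23 (1.85 to 2.63). Cones had 2.04 and 4.14 CPM, and bipolar cells 2.33 CPM (2 UMIs) and 19.9 CPM (22 UMIs), a log2 ratio of 3.09 (1.07 to 6.23). Free RNA had 8.84 CPM (2 UMIs) and 48.8 CPM (19 UMIs). *Aqp4* was thus lower in ND6 in 4-marker cells and higher in cells of exactly 2 markers, in free RNA, and in these neurons. The share of cells with a UMI was 14.7% in WT and 17.6% in ND6 Müller-rule cells against 0.633% and 2.14% of rods, and thinned to 400 UMIs 2.76% and 2.6% against 0.102% and 0.564%.

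The carbonic anhydrases split. *Car2* was spread over the neurons, at 464 CPM in WT and 523 CPM in ND6 Müller-rule cells, 442 and 503 CPM in rods, 427 and 445 CPM in cones, and 671 and 687 CPM in bipolar cells. Its log2 ratio was 0.17 in Müller-rule cells, 0.12 (−0.02 to 0.25) in 4-marker cells, and 0.09 in free RNA, the smallest of 7 genes there. Müller-rule cells, rods, and cones followed bipolar cells in this order in both libraries, and the WT intervals of rods and cones overlapped, as did the ND6 intervals of Müller-rule cells and rods. *Car14* was foremost an RPE transcript here, at 886 CPM in WT and 1013 CPM in ND6 RPE cells. In Müller-rule cells it stood at 153 CPM (1429 UMIs) in WT and 63.0 CPM (824 UMIs) in ND6, a log2 ratio of −1.28 (−1.41 to −1.16), the lowest of the 8 genes that could be compared. The RPE check genes moved with it in the same cells, at 8448 CPM in WT and 2189 CPM in ND6, and their part was not tested. Among Müller-rule cells with no gate other than rod, where the RPE check genes summed to 421 CPM in WT and 548 CPM in ND6, *Car14* was at 73.4 and 53.1 CPM, a log2 ratio of −0.47. In 4-marker cells it was at 156 and 111 CPM, a log2 ratio of −0.49 (−0.83 to −0.17). Rods had 6.06 and 13.3 CPM, and free RNA 13.3 CPM (3 UMIs) and 66.8 CPM (26 UMIs), both higher in ND6.

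Over the 8 genes with at least 20 UMIs in Müller-rule cells, 4 were higher and 4 lower in ND6. Past a log2 ratio of 0.5 in size were 2 higher (*Glul*, *Kcnj10*), where 19.6% of all 13744 genes were, and 2 lower (*Aqp4*, *Car14*), where 10.3% were. The median log2 ratio of the 8 was −0.11, beside 0.02 over all genes. In 4-marker cells 2 were higher and 6 lower, none past 0.5 upward (18.6% of genes) and 2 downward, *Aqp4* and *Slc38a3* (18.2%), with a median of −0.20 beside −0.04. In Müller-rule cells with no gate other than rod, none was past 0.5 upward (15.4% of genes) and 2 were downward, *Slc1a3* and *Aqp4* (11.9%). The levels by marker number are shown in the plot of cells with 0 to 4 markers.

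**Figure D2:**
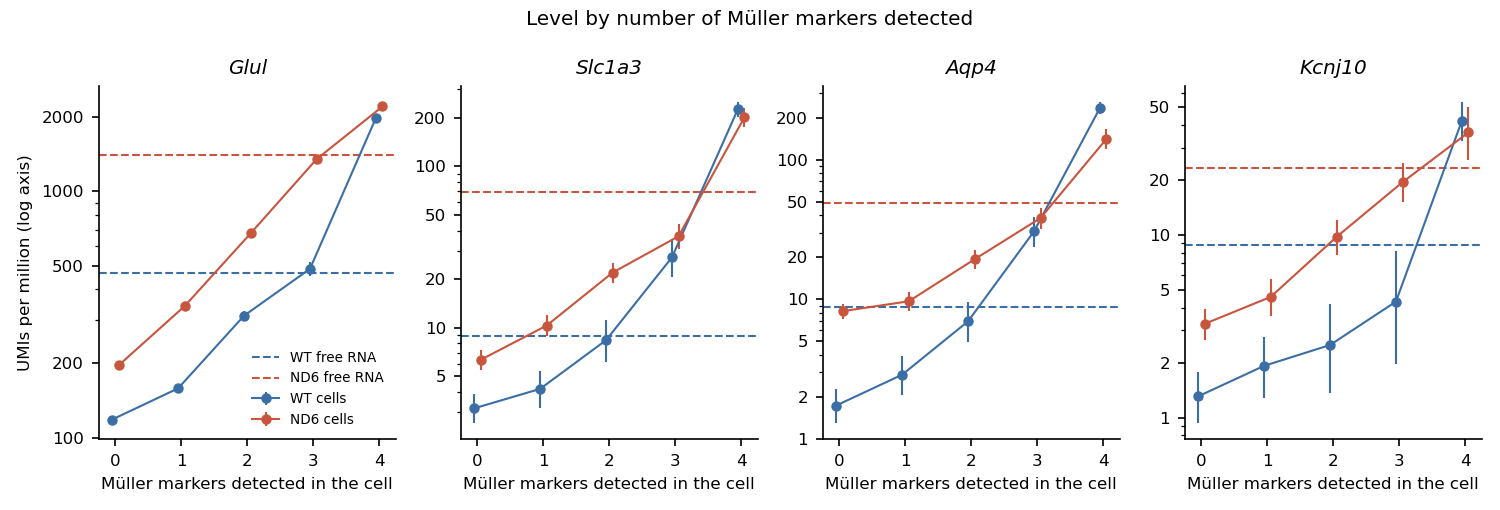
Level in CPM (log axis) of the genes in cells with 0, 1, 2, 3, or 4 of the Müller markers in the WT and ND6 libraries, with exact 95% Poisson intervals for counting error. For *Glul*, *Slc1a3*, *Kcnj10*, and *Aqp4* the ND6 level lay above the WT level in cells with 2 and 3 markers, and the libraries drew together or crossed in cells with 4. Cells of the same marker number also differed between the libraries in RPE transcripts.

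Outside Müller-rule cells most of the genes were higher in ND6. In rods 7 of 8 genes were higher in ND6 and 5 past 0.5 (*Glul*, *Slc1a3*, *Kcnj10*, *Aqp4*, *Car14*), where 21.4% of genes were, none below −0.5 (7.24%), with a median log2 ratio of 1.04 beside 0.05 over all genes. In cones 3 of 8 were past 0.5 upward (12.9% of genes) and 0 downward (8.72%), and in bipolar cells 4 of 7 upward (19.3%) and 0 downward (9.06%). RPE cells had 0 of 5 past 0.5 upward (14.9%) and 0 downward (16.7%), and microglia or macrophages had 0 of 5 upward (19.2%) and 1, *Slc38a3*, downward (22.5%) from 44 and 7 UMIs. In free RNA all 7 genes with 20 UMIs were higher in ND6 and 6 past 0.5 (32.3% of genes, and 11% downward), with a median of 1.60 beside 0.22. *Slc1a3* and *Aqp4* had 2 WT UMIs each there and *Car14* 3, and in bipolar cells *Slc1a3* had 3 and *Aqp4* 2. With so few, a gene reaching 20 UMIs could only be higher in ND6, so these calls follow from the filter. Of the 5 genes past 0.5 in rods, 4 were past it in free RNA, and *Kcnj10* had too few UMIs there. The share of all genes past it in both is not given here, so nothing is read from this overlap. Müller-rule barcodes over the mtDNA limit had 5 of 8 past 0.5 upward (28.5% of genes) and 0 downward (12%). Over all cells 7 of 9 were higher, 2 past 0.5 upward, *Glul* and *Kcnj10* (21.6% of genes), and 0 downward (8.78%), with *Glul* at 219 CPM in WT and 399 CPM in ND6.

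**Figure D3:**
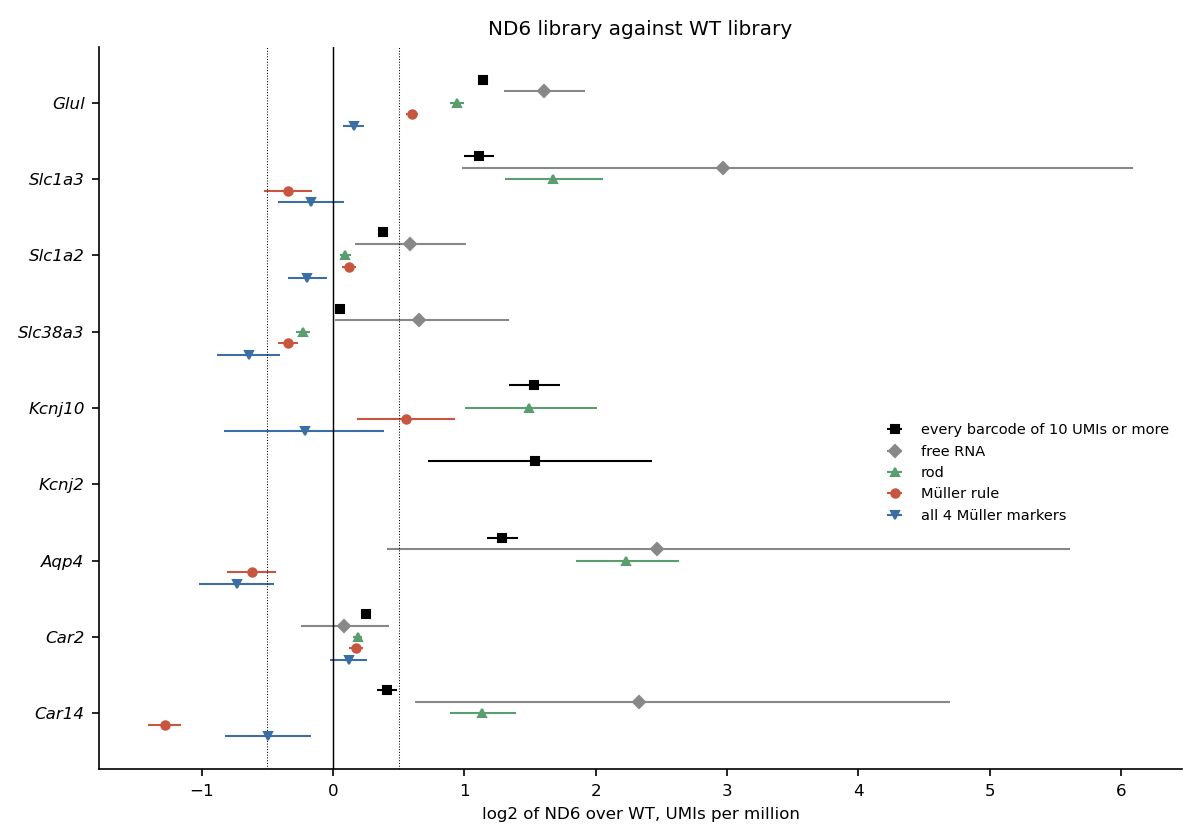
Log2 ratio of ND6 over WT CPM of each gene in sets of barcodes from 4-marker cells to free RNA, with exact conditional 95% intervals for counting error, and a line at 0 for equal levels. *Aqp4*, *Slc1a3*, and *Car14* lay below 0 in Müller-rule cells and above 0 in rods and free RNA.

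The proportions among *Glul*, *Slc1a3*, *Aqp4*, and *Kcnj10* were also counted, as UMIs per 100 *Glul* UMIs. In 4-marker cells 11.4 *Slc1a3* UMIs (95% interval 10.2 to 12.6) were counted per 100 *Glul* UMIs in WT and 9.09 (7.84 to 10.5) in ND6. *Aqp4* gave 11.8 (10.6 to 13.1) and 6.39 (5.36 to 7.56) per 100, so it was lower in ND6 also relative to *Glul* of the same cells. In free RNA of ND6 the ratios were 4.92 (3.21 to 7.24) for *Slc1a3*, 3.46 (2.07 to 5.46) for *Aqp4*, and 1.64 (0.75 to 3.13) for *Kcnj10*. In rods of ND6 they were 3.24 (2.85 to 3.67), 4.0 (3.56 to 4.48), and 1.66 (1.38 to 1.97). In rods of WT they were 1.95 (1.55 to 2.43), 1.64 (1.27 to 2.08), and 1.13 (0.83 to 1.51), while free RNA of WT held 2 UMIs of each. The *Slc1a3* and *Aqp4* ratios of rods and free RNA thus lay below those of 4-marker cells in the same library. For *Aqp4* of ND6 the intervals of free RNA and 4-marker cells overlapped. *Kcnj10* gave 2.12 (1.64 to 2.69) in 4-marker cells of WT and 1.64 (1.15 to 2.27) in those of ND6. The ND6 value was thus like that of ND6 rods and free RNA.

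Counting every barcode with at least 10 UMIs, cells or not, all 9 genes were higher in ND6, and 5 past 0.5, where 32% of 16358 genes were and 5.34% were downward. The median log2 ratio was 1.11 for the 9 genes and 0.25 for all genes. *Glul* had 322 CPM in WT and 711 CPM in ND6, a log2 ratio of 1.14 (1.12 to 1.16). *Slc1a3* (11.5 to 24.9 CPM, log2 ratio 1.11), *Kcnj10* (3.87 to 11.2 CPM, 1.53), and *Aqp4* (10.5 to 25.7 CPM, 1.29) likewise were higher. *Kcnj2* was past 0.5 too, from 17 and 51 UMIs. Per UMI, the ND6 library thus held more of all 9 transcripts over its barcodes. In 4-marker cells *Glul* alone was higher beyond counting error, by 0.16, and the interval of *Car2* (0.12) included no difference. More cells of a type and more RNA per cell cannot be told apart in a sum over every barcode.

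The transcripts also lay in different barcodes in the 2 libraries. In WT, 48.3% of all *Aqp4* UMIs, 42.3% of *Slc1a3*, 23.5% of *Kcnj10*, and 13.4% of *Glul* were in the 50 4-marker cells, which held 2.16% of all UMIs. In ND6 the 70 such cells, with 1.30% of all UMIs, held 7.16% of *Aqp4*, 10.5% of *Slc1a3*, 4.23% of *Kcnj10*, and 4.06% of *Glul*. Barcodes with too few UMIs or genes to count as cells held a larger share in ND6. They held 12.0% of *Aqp4* UMIs in WT and 43.3% in ND6, 11.6% and 39.5% of *Slc1a3*, 25.9% and 37.7% of *Kcnj10*, and 23.4% and 30.6% of *Glul*. For all transcripts the share in such barcodes was 11.0% in WT and 13.5% in ND6, for *Slc38a3* 4.60% and 13.9%, and for *Car2* 8.69% and 14.8%. The share over the mtDNA limit was 27.6% in WT and 24.2% in ND6 for *Glul* and 14.8% and 13.0% for *Aqp4*, beside 17.0% and 5.98% of all UMIs. Depth moved with these shares, since 4-marker calls need many UMIs and the ND6 cells had fewer per cell, and its part was not tested.

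**Figure D4:**
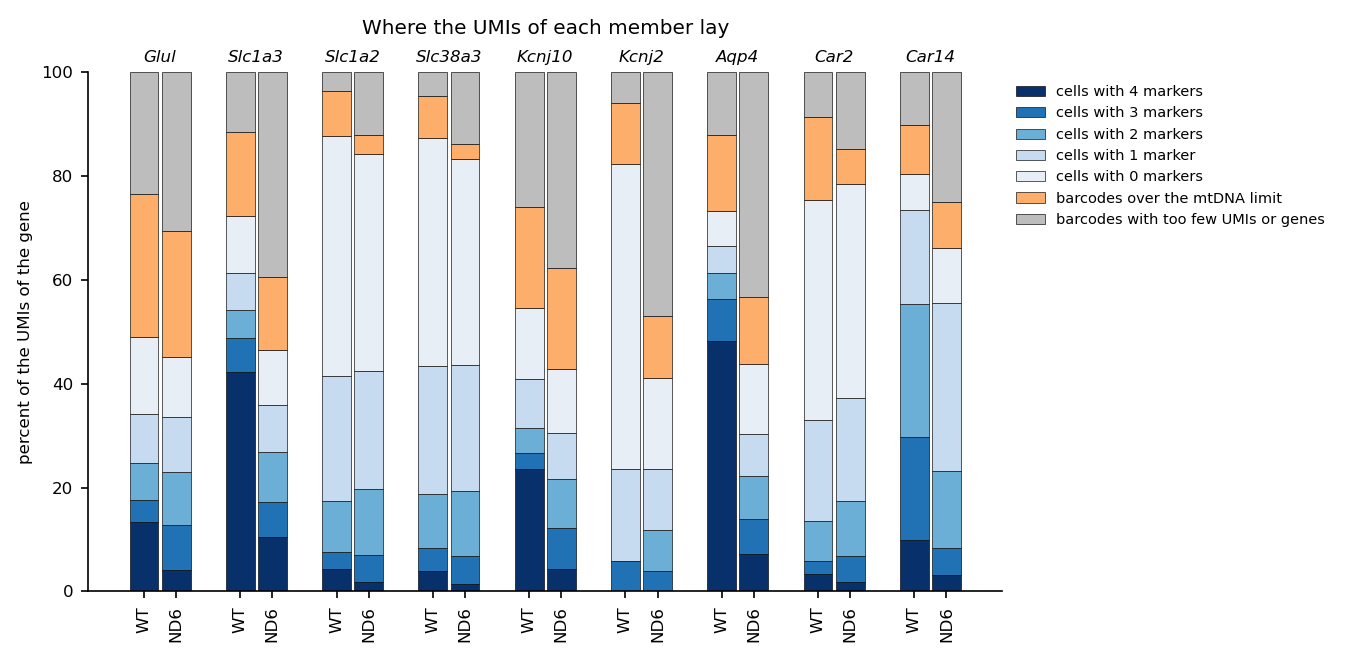
Share in percent of each gene's UMIs, over barcodes of at least 10 UMIs, that lay in cells with 4 markers, cells with fewer markers, barcodes over the mtDNA limit, and barcodes with too few UMIs or genes, for the WT and ND6 libraries. The 4-marker share of *Aqp4* was 48.3% in WT and 7.16% in ND6.

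Cells that held several of these genes at once were counted as well. At least 1 of *Slc1a3*, *Aqp4*, and *Kcnj10* was detected in 22.3% of the WT and 33.6% of the ND6 Müller-rule cells, and at least 2 of them in 10.6% and 9.79%. Among 4-marker cells at least 2 were detected in 78% of WT and 57.1% of ND6 cells. In rods at least 1 was detected in 1.70% of WT and 4.57% of ND6 cells.

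Other genes of the same pathways, 47 in 5 lists written from general knowledge, showed no shared direction. Of 41 with at least 20 UMIs in Müller-rule cells, 19 were higher and 22 lower in ND6, and 10 were past 0.5 in each direction, with a median of −0.06. These are 24.4% in each direction, beside 19.6% upward and 10.3% downward over all genes. In 4-marker cells 13 of 31 were higher and 18 lower, 8 past 0.5 upward (25.8%, beside 18.6% of all genes) and 4 downward (12.9%, beside 18.2%). The counts per list below are in Müller-rule cells and stand beside the same 19.6% and 10.3%, and with so few genes per list nothing is read from them. Among glutamate and glutamine genes 3 of 13 were past 0.5 upward and 2 downward. The neuronal glutamate transporter *Slc1a1* was at 65.5 CPM in WT and 19.7 CPM in ND6, and it stood at 546 and 436 CPM in RPE cells. Among potassium genes 3 of 8 were past 0.5 upward and 2 downward. *Kcnj13*, an inward rectifier of the RPE, was at 66.8 CPM in WT and 25.4 CPM in ND6, beside 577 and 798 CPM in RPE cells. *Kcnma1*, a calcium-activated potassium channel, was at 57.3 CPM in WT and 133 CPM in ND6, beside 868 and 759 CPM in bipolar cells.

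Of 8 water and anchoring genes 1 was past 0.5 upward and 2 downward. *Dtna*, a dystrobrevin of the complex that anchors *Aqp4* at endfeet, had a log2 ratio of 0.80 in both Müller-rule and 4-marker cells. The water channel *Aqp1* had −0.20 and −0.75. Of 9 carbonate, proton, and lactate genes 2 were past 0.5 upward and 3 downward, with *Car12* at −2.03, the anion exchanger *Slc4a3* at 2.22, and the lactate carrier *Slc16a1* at −0.72 in Müller-rule and −0.95 in 4-marker cells. *Car12* stood at 220 and 249 CPM in RPE cells. The GABA transporter *Slc6a13*, at 249 and 338 CPM in RPE cells, was at −1.81. *Slc1a1*, *Kcnj13*, *Car12*, and *Slc6a13*, all lower in ND6 Müller-rule cells, each stood at over 200 CPM in RPE cells of both libraries, and the smaller share of RPE-gated cells in ND6 moved with them, whose part was not tested.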

How the data were processed

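Raw UMI counts per gene and barcode were deposited by the authors for each library, aligned to mm10 with Cell Ranger (v3.0.2) and without normalization. The release of the gene annotation is not given in the sources used here. From these counts, UMIs were summed per library over classes of cells and divided by the class total. A class needed at least 2 of 4 markers, and a rod no other gate. Classes with under 50 cells in a library were left out of comparisons. Cells that met several gates other than rod and Müller went to no other class. No doublet caller was run. Sums have exact Poisson, shares exact Clopper-Pearson, and ratios exact conditional 95% intervals, for counting error only. Ratios are given for genes of at least 20 UMIs in the libraries together, and a count of 0 is set at 3. Thinned shares are hypergeometric expectations. With 1 library per group no p-value was computed. The code was tested on simulated data. The genes named are the 9 chosen by symbol, the pathway lists, the markers, and for each of the 9 the 3 genes of highest Pearson correlation of log2(CPM + 1) over 6 classes in both libraries among 11877 genes with at least 200 UMIs. Results for some of these genes are not reported here. The members and lists were chosen with earlier results of these data known. Alternatives concerned the mtDNA, depth, and marker limits, cells of other gates, the scaling, the filter, and the free RNA range. Gene positions are from GENCODE M21 (9 of 9 matched by ID) and upstream sequences from RefSeq GRCm38.p6 (6 of 9 had a window). Python 3.11.15, numpy 2.4.6, scipy 1.17.1, pandas 2.3.3, and matplotlib 3.10.9 were used.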

Additional observations from a re-analysis of the deposited data

Results flagged for a closer look

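For 2 genes the libraries differed in opposite directions in the sum over Müller-rule cells and in neurons, and these differences between classes were not tested. The log2 ratio of ND6 over WT of *Aqp4* was −0.62 in Müller-rule cells but 2.23 in rods, 1.02 in cones, and 3.09 in bipolar cells. It was lower in ND6 in 4-marker cells (−0.73) but higher in Müller-rule cells with exactly 2 markers (1.48), as in the neurons. That of *Car14* was −1.28 in Müller-rule cells but 1.14 in rods and 1.49 in bipolar cells.

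Barcodes that met the Müller rule but exceeded the mtDNA limit, 499 in WT and 839 in ND6, lay outside the cells of the report, which counts them once, and held some genes above the interval of the free RNA of their library. There *Glul* stood at 1983 CPM in WT and 4409 CPM in ND6, *Slc1a3* at 53.0 CPM in WT, *Car14* at 62.0 CPM in WT, and *Car2* at 710.3 CPM in ND6.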

How the results depend on the processing

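No paired analysis was possible because the groups share 1 replicate number only, and no replicate could be left out with 1 library per group. Of 128 counts that summarise a comparison under an alternative, 111 stayed within 1.5 times the main count and 17 did not. Single genes were less stable. Of 196 log2 ratios under an alternative, 116 stayed within the counting interval of the main value, 78 left it, and 2 reversed. The 5 genes enriched in Müller-rule cells numbered 5 in WT under every alternative run, but 4 in ND6 with at most 10% mtDNA-encoded UMIs, with at least 3 markers, and without cells of other gates. The 2 genes higher past 0.5 in Müller-rule cells became 0 with at most 10% mtDNA-encoded UMIs, with at least 3 or all 4 markers, and without cells of other gates, and 1 with the mean of per-cell CPM. The 2 lower ones became 1 without an mtDNA limit and 1 with the mean of per-cell CPM. Over all cells, the 2 higher became 5 without an mtDNA limit, 5 without the highest 10% of cells by UMIs, 6 with the mean of per-cell CPM, and 5 over every barcode of 10 UMIs or more. In the other classes, 12 higher pairs of gene and class became 21 without the low-count filter, and 1 lower pair became 0 without the highest 10% of cells. In free RNA, the 6 higher became 1 at 20 to 50 UMIs, where 4 genes had 20 UMIs. The 10 higher and 10 lower pathway genes became 5 and 4 without cells of other gates, and the lower ones 4 with all 4 markers. The cause was not tested where fewer genes or cells do not show it. Of single genes, *Slc1a2* turned from 0.58 to −0.082 in free RNA of 20 to 50 UMIs and *Kcnj10* from 0.55 to −0.21 with all 4 markers. In Müller-rule cells 5 of 8 genes kept their sign under every alternative, with *Glul* from 0.16 to 0.87, *Slc1a3* from −0.87 to −0.17, *Aqp4* from −1.03 to −0.21, and *Car14* from −1.67 to −0.47. All 4-marker values and those over every barcode were added after the data had been seen.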

Other observations

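The genes whose levels ran most alike over the 12 points of 6 classes in 2 libraries were sought for each member, as a description with n = 12 points that share libraries, depth, and free RNA. For *Slc1a3* these were *S1pr1* (Pearson's r = 0.953), *Pdlim4*, and *Adamts1*, and for *Kcnj10* they were *BC055402*, *Plpp3*, and *Mlc1* (0.932), a membrane protein of astroglial endfeet. For *Aqp4* they included the Müller marker *Dkk3* (0.959) and *Ephb1*. *Dkk3* is itself a marker by which Müller-rule cells were chosen, so its high level in that class follows in part from the rule. Nothing is read from its likeness to *Aqp4*. *Glul* ran most like *Nat8l*, *Sash1*, and *Nfix*. *Car14* ran most like *Timp3*, *A2m*, and *Gsta4*, with r = 0.991 for *Timp3*. *Slc1a2* ran most like *Akap11*, *Negr1*, and *Srpk2*, *Slc38a3* like *Rbl2*, *2310057M21Rik*, and *Nudt21*, and *Car2* like *Bok*, *Gm31282*, and *Rab39b*.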
